A study of Mus musculus with 2 samples.

Results

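Mitochondrial carriers are the inner membrane proteins, encoded by the Slc25a gene family, that move metabolites, nucleotides, phosphate and cofactors between the cytosol and the matrix. The import genes, named Tomm and Timm, encode the translocases of the outer and inner mitochondrial membranes and their helpers. Members were every gene whose symbol starts with Slc25a, Timm or Tomm and that has a probe set naming it alone. This gave 68 genes of 18193 in all, made up of 44 carriers on 93 probe sets and 24 import genes on 50 probe sets. They were compared between activated and naive CD8+ T cells from the pmel-1 strain, in which T cells carry a transgenic receptor. The activated cells were proliferating cells taken 72 h after activation, and the naive cells were not activated. The activating agent, the age and sex of the animals and the organ of origin are not stated in the labels. Each group was 1 pool of RNA from 4 independent experiments on 1 array, so every difference below is a single comparison of pools, with neither a replicate error nor a test, and precision is limited by there being 1 array a group.

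The 2 arrays went with their labels. The activated array was higher for 6 of 6 markers of activated T cells, which included the cytotoxic protease gene Gzmb (10896 activated, 282 naive). It was lower for 4 of 4 measured markers of naive T cells, and all 5 CD8 T cell markers were measured. Of these Cd8b1 was lower (3554 activated, 7725 naive, 2.17-fold) and the other 4 did not pass. Over all 5, Cd8b1 counted, the summed intensity was 23058 on the activated array and 30420 on the naive array. Intensities had a median of 52.3 on the activated array and 56.2 on the naive array over 45037 probe sets. Among 18 spike-in control probe sets above 100, the log2 ratios of activated over naive had a standard deviation of 0.19. The ratio of 3' to 5' signal, a sign of RNA integrity, was 1.11 on the activated array and 1.20 on the naive array for Actb, and 0.859 and 0.851 for Gapdh.

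Most mitochondrial proteins are made in the cytosol and enter through the outer membrane translocase TOM. Proteins with a cleavable presequence then pass the inner membrane through the TIM23 complex, which a matrix motor built on the chaperone mtHsp70 pulls. The carriers themselves take another route: they are escorted across the intermembrane space by the small TIM chaperones and inserted into the inner membrane by the TIM22 complex. In proliferating T cells mitochondria are known to grow in mass and to export citrate and other intermediates for biosynthesis.

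Where a gene had several probe sets, the one with the largest average of activated and naive intensity stood for it. It counted as measured when that probe set reached 100 on an array. It was called higher or lower when activated and naive values differed at least 1.4-fold, with values under 100 raised to 100 first, and by more than 100 in intensity. By this size rule 14 of 22 measured import genes were higher in activated cells and none was lower. Of all 9842 measured genes, 23.7% were higher and 20.6% were lower. Among the 35 measured carriers 9 were higher and 6 lower, shares of 25.7% and 17.1% that lie near the background. The median log2 ratio of activated over naive was 0.63 over import genes, 0.11 over carriers and 0.01 over all measured genes. As deposited, import genes had a positive ratio in 21 of 22 cases and carriers in 20 of 35. Of all 9842 measured genes 4988 had a positive ratio. At least 2-fold higher were 6 import genes and 5 carriers, and at least 2-fold lower were no import gene and 2 carriers, against 12.1% higher and 9.19% lower of all measured genes. Probe sets of the same gene spread by a standard deviation of 0.47 on the log2 scale over all genes and by 0.31 over 28 members with several measured probe sets. Counted by probe set, 22 of 42 measured import probe sets were higher and none lower, and 20 of 64 measured carrier probe sets were higher and 8 lower. The background by probe set was 23.2% higher and 19.2% lower.

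Within the TOM complex the channel gene had a larger ratio than the measured receptor genes and Tomm7. Tomm40, which encodes the pore through which nearly all precursors pass, was at 1014 in activated cells and 318 in naive cells (3.19-fold higher). This was the largest ratio of any import gene by its representative probe set. It rests on 1 probe set. Tomm70a, the receptor that takes up carriers and other precursors with internal signals, was at 1889.7 in activated cells and 1249.7 in naive cells (1.51-fold higher). All 4 measured probe sets of Tomm70a had positive log2 ratios, from 0.52 to 0.67, and 3 of them passed the size rule. Tomm20, the receptor for presequences, was at 7969 in activated and 7165 in naive cells and did not pass. Its 5 measured probe sets had log2 ratios of 0.15 to 0.72, and 1 of them passed. The central receptor gene Tomm22 was at 1586 in activated and 1357 in naive cells. Tomm7, a small subunit, was at 1642 in activated and 1448 in naive cells, with ratios of 0.01 to 0.18 over 3 probe sets. Neither of them passed the size rule. The paralogue Tomm40l was at 279.6 in activated and 264 in naive cells. Tomm34, a cytosolic cochaperone that is not part of the complex, was at 552 in activated and 701 in naive cells and had a negative ratio. It was the only measured import gene that did so as deposited, by representative probe set. Tomm20 was also negative after quantile normalization (-0.17) and loess scaling (-0.10). In all, 2 of 7 measured TOM genes, Tomm34 counted, were higher. That share of 28.6% lies near the 23.7% of all measured genes. The group's median log2 ratio was 0.18. Tomm5 and Tomm6, both small subunits, had only probe sets shared with another gene and are not among the members. The probe set of Tomm5 was at 2274 in activated and 1116 in naive cells, past the size rule, and those of Tomm6 did not pass.

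The TIM23 complex had the highest median of the import groups, 1.06, with 5 of 6 genes higher (83.3%, against 23.7% of all measured genes). Timm23, the presequence channel, was at 4942 in activated cells and 2248 in naive cells (2.20-fold higher). Timm17a, its partner subunit, was at 1711 in activated and 764 in naive cells (2.24-fold higher). Its paralogue Timm17b was at 964 in activated and 488 in naive cells (1.98-fold higher), and its other probe set passed with a smaller log2 ratio, 0.59. Timm23, Timm17a and Timm17b were thus all higher. Timm50, the receptor that takes presequences from TOM, was at 577 in activated and 257 in naive cells (2.25-fold higher). The other measured probe set of Timm50 gave a larger log2 ratio, 1.77 against 1.17. Timm44, which tethers the motor to the channel, was at 1101 in activated and 737 in naive cells (1.49-fold higher), and all 3 of its probe sets passed, with ratios up to 0.99. Timm21, whose yeast counterpart links TIM23 to the respiratory chain, was at 755 in activated and 612 in naive cells and was the one member that did not pass.

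**Figure D1:**
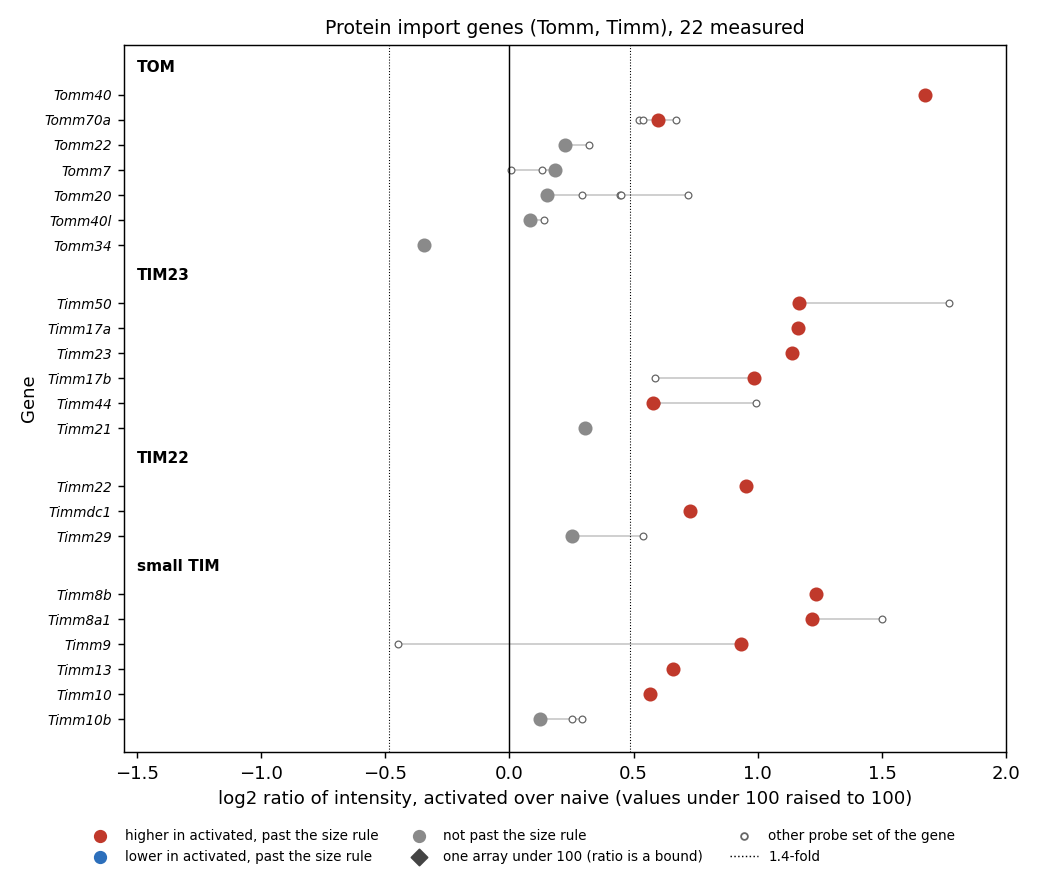
Log2 ratio of activated over naive intensity for the 22 measured import genes, grouped by complex, 1 array per group. Large points are the probe set that represents the gene, small open points its other measured probe sets and dotted lines 1.4-fold. Large points of the 14 genes past the size rule (red) lie to the right of 0, from 0.57 for Timm10 to 1.68 for Tomm40. Of the large points only that of Tomm34 lies to the left, joined by Tomm20 after quantile or loess scaling (not drawn). A small point of Timm9 also lies to the left, at -0.45.

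The route used by the carriers themselves was represented by TIM22 and the small TIM chaperones. Of the genes tied to carriers here, Timm22 and Timm10 were higher and Timm9 was higher with an uncertain call. Timm29 and Timm10b did not pass. Timm22, the carrier insertase, was at 824 in activated cells and 425 in naive cells (1.94-fold higher). This rests on 1 measured probe set, the other of Timm22 lying under 100 on both arrays. Timm29, a TIM22 subunit known from human cells, was at 632 in activated and 531 in naive cells and did not pass. Timmdc1, whose product assembles respiratory complex I and is no import subunit despite its name, was at 506 in activated and 306 in naive cells (1.65-fold higher). The median log2 ratio of the 6 measured small TIM genes was 0.80, and 5 of them were higher (83.3%, against 23.7% of all measured genes). The highest ratios belonged to Timm8b, at 1509 in activated and 642 in naive cells (2.35-fold higher), and to Timm8a1, at 1783 in activated and 766 in naive cells (2.33-fold higher). Timm8a1 is the mouse counterpart of the human gene mutated in deafness-dystonia syndrome, and its second probe set gave a log2 ratio of 1.50. Its partner Timm13 was at 1547 in activated and 981 in naive cells (1.58-fold higher).

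Timm9 and Timm10 form the chaperone that escorts carriers. Timm10 was at 1021 in activated and 690.2 in naive cells (1.48-fold higher). Timm9 was at 352 in activated and 184 in naive cells (1.91-fold higher) by its brighter probe set, while another gave a log2 ratio of -0.45, with the activated value under 100. Its call is therefore uncertain. Timm10b, which docks this chaperone on TIM22, was at 1528 in activated and 1401 in naive cells, with ratios of 0.13 to 0.29 over 3 probe sets, none of them past the rule. The paralogue Timm8a2 and the outer membrane gene Tomm20l lay under 100 on both arrays, at no more than 15.7.

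Of 34 other genes of import and mitochondrial transport with a probe set of their own, 30 were measured. Of these 19 were higher (63.3%) and 1 was lower (3.33%), against 23.7% and 20.6% of all measured genes. The 30 genes had a median log2 ratio of 0.72. The list was chosen with earlier results of these data known. Among the 19 measured import partners 12 were higher (63.2%) and none lower. Hspd1, the matrix folding chaperone Hsp60, was at 6614 in activated and 1641 in naive cells (4.03-fold higher). Chchd4 and Gfer, the receptor and the oxidase that trap cysteine-rich proteins such as the small TIMs, were both higher. Chchd4 was at 1122 in activated and 422 in naive cells (2.66-fold), and Gfer was at 1035 in activated and 469 in naive cells (2.21-fold). Mtx2, which encodes a metaxin of the outer membrane assembly machinery, was at 863 in activated and 326 in naive cells (2.65-fold higher). The porin gene Vdac1 was at 3720.1 in activated and 1439 in naive cells (2.58-fold higher). Sfxn3, a sideroflexin, was the only lower gene of this list, at 173 in activated and 499 in naive cells (2.89-fold lower). Nearest to no difference were Immp1l (911 activated, 928 naive), Mcu, the calcium uniporter (163 activated, 158 naive), and Sfxn2 (321 activated, 373 naive). Some genes of this list were not analysed here, such as Dnajc19 and Mpc2.

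Carriers went both ways. Slc25a5 and Slc25a4, which exchange matrix ATP for cytosolic ADP, were the measured ADP/ATP carriers, and both were higher in activated cells. Slc25a5, known as Ant2 and typical of dividing cells, was at 9803 in activated and 4677 in naive cells (2.10-fold higher). All 8 of its probe sets passed the size rule, with log2 ratios between 0.74 and 1.33. Several of them may also match an annotated Slc25a5 pseudogene, so the value is uncertain as to the gene. Slc25a4, or Ant1, was at 4593 in activated and 2481 in naive cells (1.85-fold higher), and 2 of its 3 measured probe sets passed. The phosphate carrier gene Slc25a3 was at 8845 in activated and 6347 in naive cells, a ratio of 1.39-fold that did not reach the minimum. A dim second probe set of Slc25a3 gave -0.66 on the log2 scale, with the activated value under 100.

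Carriers that exchange ATP-Mg for phosphate include Slc25a24 and Slc25a25. Slc25a25 was at 341 in activated and 232 in naive cells (1.47-fold higher). Slc25a24 was at 522 in activated and 378 in naive cells, without passing. Of the carriers related to uncoupling proteins, Slc25a30 was at 344 in activated and 631 in naive cells (1.83-fold lower). All 4 of its measured probe sets had negative ratios and 3 passed. Slc25a14 was at 252 in activated and 163 in naive cells, and Slc25a27 at 64.8 in activated and 138 in naive cells. Neither passed the size rule.

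Among carriers of di- and tricarboxylates, Slc25a1, which exports citrate for fatty acid and sterol synthesis in the cytosol, was at 618 in activated and 215 in naive cells (2.88-fold higher). Slc25a10, the dicarboxylate carrier, was at 367 in activated and 216 in naive cells (1.70-fold higher), but its other probe set gave a log2 ratio of only 0.02. Slc25a11, the oxoglutarate/malate carrier of the malate-aspartate shuttle, was at 768 in activated and 856 in naive cells and did not pass. Slc25a34 and Slc25a35 lay under 100 on both arrays.

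Most amino acid carriers did not pass the size rule, with 2 of 10 measured genes of this group higher and 1 lower. These shares were 20.0% and 10.0%, against 23.7% and 20.6% of all measured genes. Slc25a13, the aspartate/glutamate carrier citrin, was at 328 in activated and 16.8 in naive cells (at least 3.28-fold higher). Its paralogue Slc25a12, or aralar, was at 1326 in activated and 1425 in naive cells. Slc25a47 was at 196 in activated and 24.0 in naive cells (at least 1.96-fold higher), by 1 probe set of the kind that can match several transcripts. Slc25a45 was at 229.9 in activated and 503 in naive cells (2.19-fold lower). Those that did not pass had log2 ratios between -0.48 and 0.30. They were Slc25a20 for acylcarnitines (666 activated, 542 naive), Slc25a29 for basic amino acids (201 activated, 173 naive) and Slc25a15 for ornithine (343 activated, 329 naive). The remainder were Slc25a38 for glycine (257 activated, 269.9 naive), Slc25a22 for glutamate (171 activated, 206 naive) and Slc25a44 for branched-chain amino acids (132 activated, 184 naive). The 3 measured probe sets of Slc25a29 ranged from -0.52 to 0.22. Slc25a2, Slc25a18 and Slc25a48 lay under 100 on both arrays.

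Slc25a33, a pyrimidine nucleotide carrier, was at 425 in activated and 128 in naive cells (3.32-fold higher). Slc25a36, the second pyrimidine nucleotide carrier, was at 741 in activated and 1042 in naive cells (1.41-fold lower), only just past the minimum. Its other measured probe set did not pass, at -0.15 on the log2 scale. Slc25a17, a cofactor carrier of peroxisomes rather than mitochondria, was at 576 in activated and 215 in naive cells (2.68-fold higher). Slc25a32, which carries folate and FAD, was at 506 in activated and 405 in naive cells. The NAD carrier gene Slc25a51 was at 788 in activated and 1049 in naive cells, and its 3 probe sets had log2 ratios from -0.48 to 0.48, on both sides of 0. The coenzyme A carriers Slc25a16 (626 activated, 557 naive) and Slc25a42 (224 activated, 207 naive) and the S-adenosylmethionine carrier Slc25a26 (79.8 activated, 102 naive) did not pass either.

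Both mitoferrins, which bring iron into the matrix for heme and iron-sulfur clusters, were lower in activated cells. Slc25a37, mitoferrin 1, was at 395 in activated and 601 in naive cells (1.52-fold lower). Slc25a28, mitoferrin 2, was at 324 in activated and 543 in naive cells (1.68-fold lower). Each rests on 1 probe set. Mitoferrin 1 is known for its high expression in red cell precursors, and the beta-globin gene Hbb-b2 was at 1 in activated and 6852 in naive cells. Over 8 erythroid markers with a probe set of their own the summed intensity was 411 in activated and 7327 in naive cells. Most of the naive sum was Hbb-b2. Apart from Hbb-b2, 3 of them were measured and none passed. Alas2 was at 1 in activated and 127 in naive cells, Slc4a1 at 105 in activated and 107 in naive cells, and Klf1 at 124 in activated and 84.5 in naive cells. Antigen presentation markers were lower for 4 of 5, with a summed intensity of 891 in activated and 7218 in naive cells. B cell markers were lower for 2 of 4 measured (list sums of 503 activated and 1109 naive), and 3 of 7 lay under 100 on both arrays. All list sums take in the markers under 100. Myeloid markers were lower for 2 of 2 measured (list sums of 718.7 activated and 1174 naive), and 6 of 8 lay under 100. NK cell markers were lower for 2 of 2 measured (list sums of 272 activated and 693.5 naive), and 1 of 3 lay under 100. The 1 measured CD4 T cell marker did not pass (list sums of 235 activated and 251 naive). The part of these cell types in the lower carriers was not tested. In such pools fewer cells of a type and less RNA per cell cannot be told apart.

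The glutathione carriers were split. Slc25a39 was at 1979.9 in activated and 1475 in naive cells and did not pass by its brightest probe set. Its 3 other measured probe sets did pass, with log2 ratios from 0.67 to 1.09. Slc25a40 was at 288 in activated and 359 in naive cells, without passing. Of the remaining carriers, Slc25a53, whose substrate is unknown, was at 109 in activated and 247 in naive cells (2.26-fold lower), and its other probe set did not pass. Slc25a46, an outer membrane protein that acts in mitochondrial dynamics, was at 944 in activated and 909 in naive cells. The members under 100 on both arrays numbered 9 carriers and 2 import genes. Besides those named above they were Slc25a23, Slc25a31, an ADP/ATP carrier of the germ line, Slc25a41 and Slc25a54.

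**Figure D2:**
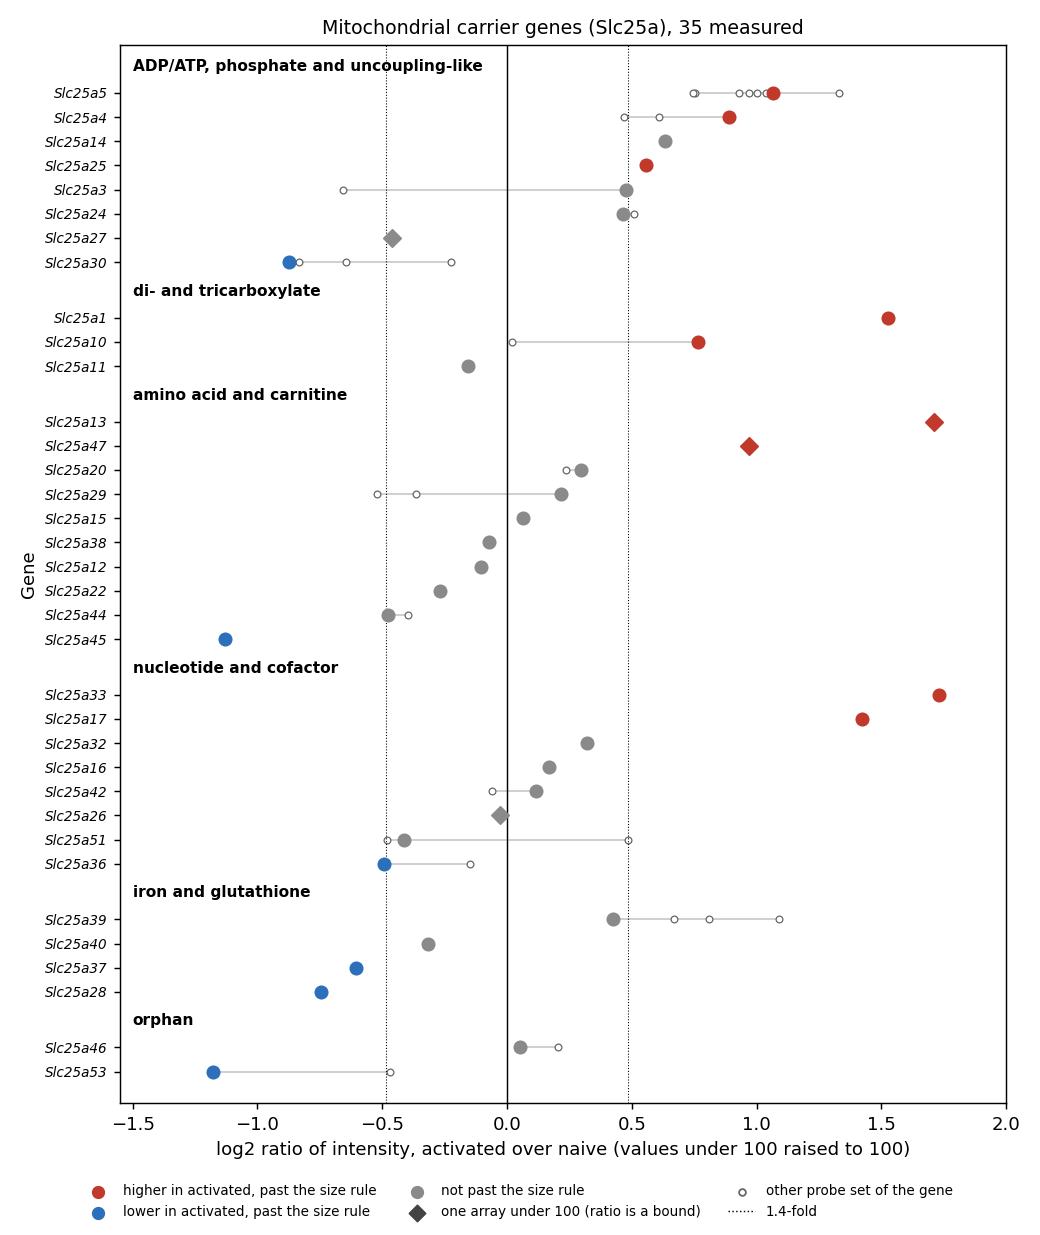
Log2 ratio of activated over naive intensity for the 35 measured carrier genes, grouped by substrate, 1 array per group. Large points are the probe set that represents the gene, diamonds are bounds with an array under 100, small open points are other measured probe sets and dotted lines mark 1.4-fold. The 9 red and 6 blue genes lie on both sides of 0, from -1.18 for Slc25a53 to 1.73 for Slc25a33 and at least 1.71 for Slc25a13.

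Several pairs of paralogues had unlike ratios. Citrin and aralar had log2 ratios of at least 1.71 and of -0.10, and the pyrimidine nucleotide carriers Slc25a33 and Slc25a36 had ratios of 1.73 and -0.49. Tomm40 and Tomm40l had ratios of 1.68 and 0.08. In each of these pairs the gene with the higher ratio rests on a single measured probe set. Other pairs had ratios of like sign and, by their representative probe sets, of like size. They were Timm17a and Timm17b (1.16 and 0.98), Slc25a5 and Slc25a4 (1.07 and 0.89) and the mitoferrins Slc25a37 and Slc25a28 (-0.61 and -0.75). The other measured probe sets gave smaller ratios for Slc25a4 (0.47 and 0.61) and for Timm17b (0.59). Those of Slc25a5 ran from 0.74 to 1.33. Levels of different probe sets cannot be set against each other, so these data do not say which paralogue was more abundant.

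**Figure D3:**
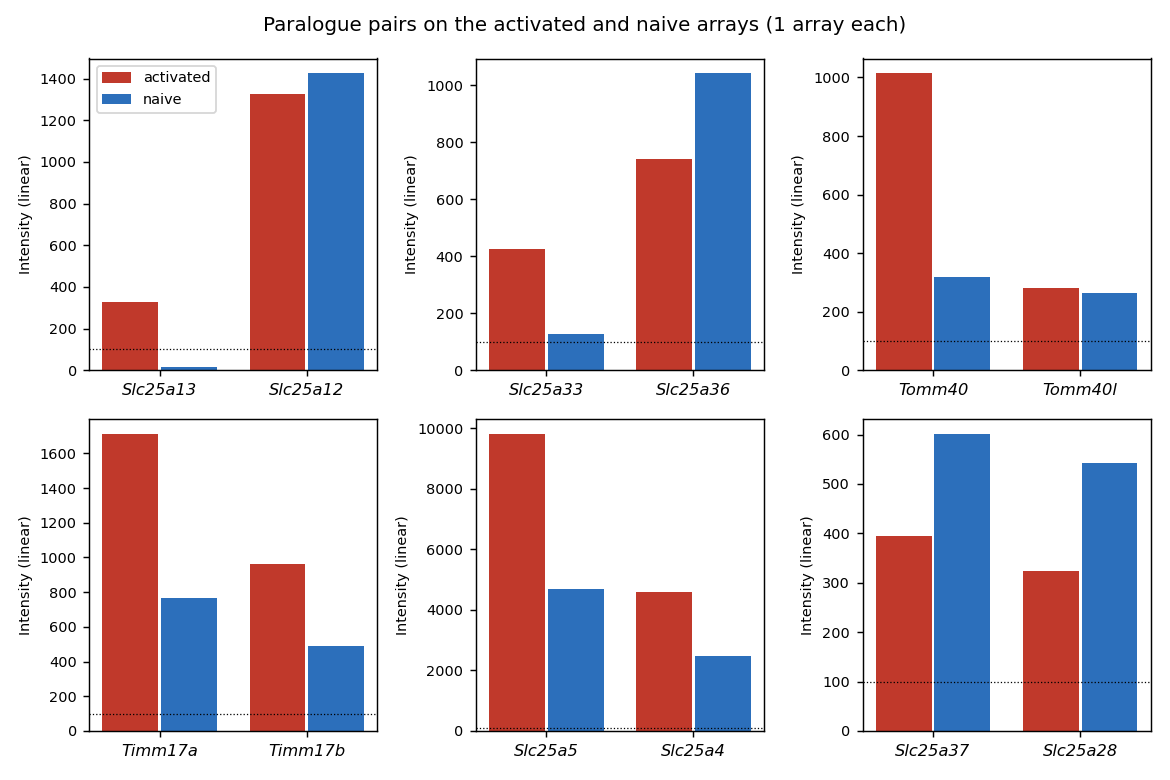
Deposited intensity on a linear axis from 0 for 6 pairs of paralogues on the activated (red) and naive (blue) arrays, 1 array each, with a dotted line at 100. Slc25a13, Slc25a33 and Tomm40 pass the size rule as higher on the activated array, while Slc25a12 and Tomm40l do not pass and Slc25a36 passes as lower, and within each of the other 3 pairs both genes differ in the same direction. Bar heights can be compared within a gene only.

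Promoters of 6 genes with high ratios are shown to set the members that differed most beside their sequence. They run from 250 bases before to 50 after the annotated start, 5′ to 3′ on the gene's strand, from RefSeq on assembly GRCm38.p6. Capitals mark CACGTG, the E-box to which MYC family and related factors bind, which reads the same on both strands. Slc25a33, Slc25a13 and Slc25a1 have the 3 highest carrier ratios, Tomm40 and Timm8b the 2 highest import ratios, and Timm8a1 holds the motif 2 times. The carriers and Timm8a1 were chosen for display after their values and motifs were seen.
Slc25a33, chr4:149774218-149774517, minus strand: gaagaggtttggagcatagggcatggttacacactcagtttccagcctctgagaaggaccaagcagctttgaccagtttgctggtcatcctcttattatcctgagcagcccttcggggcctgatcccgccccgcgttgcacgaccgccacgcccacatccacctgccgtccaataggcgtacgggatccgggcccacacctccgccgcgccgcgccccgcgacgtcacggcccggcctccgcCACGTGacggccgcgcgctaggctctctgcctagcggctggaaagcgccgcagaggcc
Slc25a13, chr6:6217124-6217423, minus strand: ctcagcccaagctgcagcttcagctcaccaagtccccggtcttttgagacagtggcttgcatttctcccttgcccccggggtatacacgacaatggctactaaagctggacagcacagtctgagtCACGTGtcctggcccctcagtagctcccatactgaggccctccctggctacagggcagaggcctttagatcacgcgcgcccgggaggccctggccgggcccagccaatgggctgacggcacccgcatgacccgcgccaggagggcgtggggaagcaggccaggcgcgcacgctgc
Slc25a1, chr16:17928170-17928469, minus strand: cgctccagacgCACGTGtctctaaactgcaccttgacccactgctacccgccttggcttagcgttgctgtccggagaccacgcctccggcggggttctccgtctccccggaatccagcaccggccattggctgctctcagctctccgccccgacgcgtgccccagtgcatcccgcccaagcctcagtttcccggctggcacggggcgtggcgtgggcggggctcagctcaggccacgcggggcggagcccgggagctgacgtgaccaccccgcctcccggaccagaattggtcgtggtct
Tomm40, chr7:19715380-19715679, minus strand: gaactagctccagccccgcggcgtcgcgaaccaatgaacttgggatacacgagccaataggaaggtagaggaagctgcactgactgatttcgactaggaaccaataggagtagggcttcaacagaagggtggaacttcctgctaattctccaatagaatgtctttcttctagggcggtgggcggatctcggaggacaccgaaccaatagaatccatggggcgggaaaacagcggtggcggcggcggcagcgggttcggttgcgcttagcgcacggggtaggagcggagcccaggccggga
Timm8b, chr9:50603651-50603950, plus strand: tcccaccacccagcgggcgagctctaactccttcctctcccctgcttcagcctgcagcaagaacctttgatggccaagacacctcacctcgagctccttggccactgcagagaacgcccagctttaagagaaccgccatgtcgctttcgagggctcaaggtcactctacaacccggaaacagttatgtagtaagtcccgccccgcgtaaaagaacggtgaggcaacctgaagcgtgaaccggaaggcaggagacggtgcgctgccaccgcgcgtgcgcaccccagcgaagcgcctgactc
Timm8a1, chrX:134541621-134541920, minus strand: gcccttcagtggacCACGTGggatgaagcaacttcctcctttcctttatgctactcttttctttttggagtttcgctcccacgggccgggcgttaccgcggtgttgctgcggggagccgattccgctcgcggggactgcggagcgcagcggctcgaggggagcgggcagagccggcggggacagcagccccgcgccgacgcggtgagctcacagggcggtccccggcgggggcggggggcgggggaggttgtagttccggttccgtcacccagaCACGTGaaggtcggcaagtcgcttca

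CACGTG was found in all 3 of these carrier promoters, first base at -8 for Slc25a33, -125 for Slc25a13 and -239 for Slc25a1 relative to the start. Timm8a1 held it at -236 and 25, and Tomm40 and Timm8b did not hold it in this window. The motif was in 7.15% of 32851 promoter windows and in 12.0% of the 8041 measured genes with a promoter in the table. Higher, lower and other measured genes held it in 12.9%, 12.1% and 11.6% of cases, so over all genes its share barely differed with the direction of the ratio. Of 28 measured carriers with a promoter 6 held it, and of the 9 higher ones 3. Slc25a36, which was lower, and Slc25a14 and Slc25a15, which did not pass, held it too. Of 19 measured import genes with a promoter 4 held it, namely Timm8a1, Timm9, Timm10 and Tomm20. The palindromic core of the consensus site of NRF1, a regulator of mitochondrial genes, was in 0.971% of windows, in 2.62% of measured genes with a promoter and in no measured member. A match says only that the letters are there.

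Compared with other mitochondrial genes, import genes lay near the mitochondrial ribosomal genes and above the carriers. Of 76 measured mitochondrial ribosomal genes (symbols starting with Mrpl or Mrps) 56 were higher and 1 was lower. Their median log2 ratio was 0.69. Of 76 measured respiratory chain and ATP synthase genes 31 were higher and 3 lower, and their median was 0.42. The middle 50% of ratios ran from 0.23 to 1.10 for import genes, from 0.47 to 1.01 for mitochondrial ribosomal genes, from 0.07 to 0.73 for respiratory chain genes and from -0.36 to 0.59 for carriers. Over all measured genes it ran from -0.45 to 0.51, with 23.7% called higher and 20.6% lower. With 1 array per group these differences between lists have no test.

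**Figure D4:**
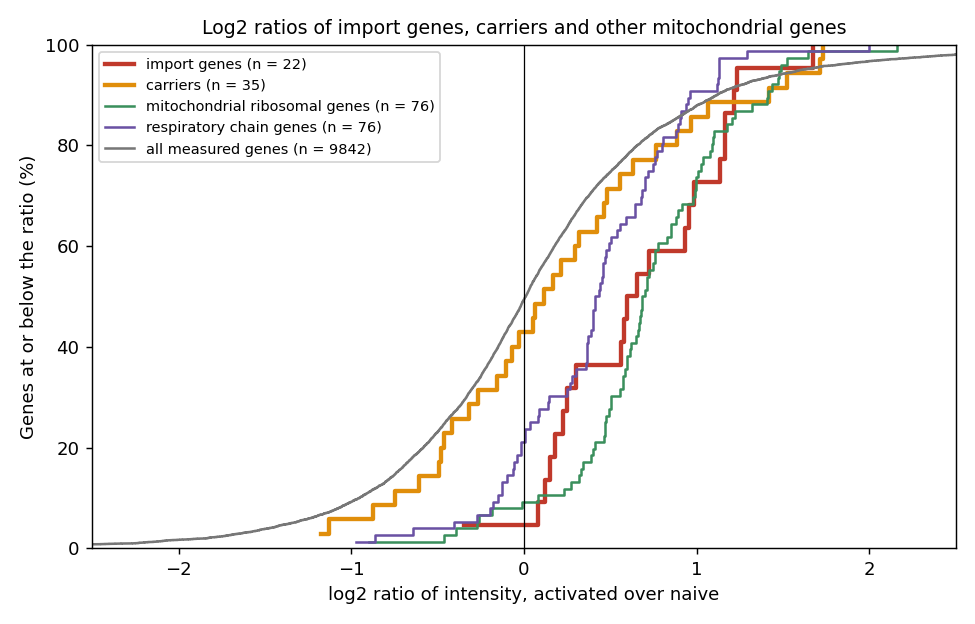
Cumulative share of genes (%) against the log2 ratio of activated over naive intensity for 22 import genes, 35 carriers, 76 mitochondrial ribosomal genes, 76 respiratory chain genes and all 9842 measured genes. The axis ends at 2.5 on either side of 0. The import curve crosses 50% near 0.63 and the carrier curve near 0.11, close to the curve of all genes at 0.01.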

How the data were processed

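Expression was measured on 2 Affymetrix mouse arrays, 1 of activated and 1 of naive cells. For each probe set the authors deposited a linear intensity. Per the series' design text, dChip computed it from perfect-match minus mismatch signal, with invariant set normalization, in a version the text does not name. Present calls, made with GCOS 1.3 per the design text, and the confidence bounds of the study's own rule were not used here, so the size rule is looser than the study's. Such differences are unreliable close to background, hence the floor of 100.

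Of 45101 probe sets 64 were controls. Symbols came from the platform annotation, which gave 34945 probe sets 1 symbol, 932 several and 9160 none. Entrez identifiers of all 143 member probe sets matched RefSeq genes of GRCm38.p6, which changed 0 symbols. The RefSeq promoter table held 55 of the 68 members. Probe sets with names ending _s_at or _x_at, 18 for carriers and 13 for import genes, can match several transcripts. Every member is named, by role. Of the other import and transport genes, the 6 largest and 3 smallest ratios are named. Calls were made with pandas 2.3.3 and numpy 2.4.6. The code was tried on simulated data with 2-fold changes planted in bright probe sets only. That trial does not cover dim genes or calls near the minimum fold. No test or p-value is possible with 1 array per group. The members and lists were chosen with earlier results of these data known. Alternatives were other fold, difference and floor minimums, median, quantile and loess scaling (statsmodels 0.14.6), and other choices of probe sets.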

Additional observations from a re-analysis of the deposited data

Results flagged for a closer look

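Tomm5, a small TOM subunit, lay outside the members because its probe set also names Gm8069. That probe set was at 2274 on the activated array and 1116 on the naive array, a log2 ratio of 1.03, past the size rule. It was singled out as a signal outside the main measurement. The 2 probe sets that Tomm6 shares with Prickle4 did not pass (1954 activated and 1515 naive, 3362 activated and 2608 naive).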

How the results depend on the processing

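With a minimum fold of 2, 5 carriers were higher and 2 lower and 6 import genes were higher. Of all measured genes 12.1% were then higher and 9.19% lower. Under the other 10 alternatives tried the counts ran from 6 to 10 higher and 4 to 7 lower carriers, and from 13 to 15 higher import genes. Shares of all measured genes ran from 19.1% to 26.7% higher and from 15.2% to 23.5% lower under those 10. No import gene was lower under any of the 11. The median log2 ratio ran from 0.03 to 0.11 for carriers and from 0.57 to 0.63 for import genes. With Timmdc1 and Tomm34 left out, an alternative chosen after seeing the data, 13 import genes were higher and the median was 0.63. The 11 alternatives gave 620 values for 57 single genes. Among them 0 of the called genes changed sign, and 10 values moved by more than 0.47, the spread between probe sets of the same gene. Many values could not move, since the fold and difference minimums leave ratios as they are. Taking the median over probe sets also leaves a gene with 1 measured probe set as it is. Called carriers with 1 measured probe set were Slc25a1, Slc25a13, Slc25a17, Slc25a25, Slc25a28, Slc25a33, Slc25a37, Slc25a45 and Slc25a47. Called import genes with 1 were Timm10, Timm13, Timm17a, Timm22, Timm23, Timm8b, Timmdc1 and Tomm40. With a floor of 50, Slc25a13 was at 2.71, Slc25a47 at 1.97 and Slc25a27 at -1.09 on the log2 scale. With a floor of 200, Slc25a13 was at 0.71, Slc25a33 at 1.09 and Slc25a53 at -0.30 on the log2 scale, since their dim array was raised, and Slc25a47 and Slc25a53 were no longer called. Taking the median over probe sets, Timm9 was at 0.24 and Slc25a3 at -0.09, and Slc25a10, Slc25a36, Slc25a53 and Timm9 lost their calls while Slc25a24 and Slc25a39 gained one. Without _s_at and _x_at probe sets Slc25a39 was called and Slc25a47 was not. With a minimum difference of 200, Slc25a10, Slc25a25, Slc25a47, Slc25a53 and Timm9 lost their calls. Among genes not called, Tomm20, Slc25a46, Slc25a3 and Slc25a29 changed sign under at least 1 alternative. Timm10 lost its call after quantile normalization. No paired analysis was possible because each group is 1 pooled array, and no replicate could be left out. Signal near background limits Slc25a13, Slc25a47, Slc25a27 and Slc25a26, for which an array lay under 100.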
